A study of Mus musculus with 12 samples.

Results

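Sestrins and their companion brakes on mTORC1 were followed here through 5 genes, Sesn1, Sesn2, Sesn3, Ddit4 and Foxo3, taken by symbol, with earlier results of these data known. These are 5 of the 32688 genes in the count table, and all 5 were among the 18066 genes tested. The libraries came from RAW264.7 cells, a mouse macrophage line, as 2 lines: Null cells, the CRISPR-Cas9 control line that the study's text calls WT, and DKO cells, in which both Tfeb and Tfe3 had been targeted. Each line was sequenced as control cells and after 8 h with 100 µM etoposide, a topoisomerase II poison that leaves DNA breaks, with 3 libraries in each of the 4 groups. Each genotype is a single line, so a difference between Null and DKO cells cannot be told apart from a difference between lines that is unrelated to the targeted genes. The control cells are called untreated in the labels and DMSO-treated in the study's methods, and 2 RNA kits are named with no assignment to libraries. The study calls the etoposide samples independent without saying whether they were separate cultures. The p-values rest on the spread between libraries of the same group, pooled for each gene over all 4 groups. A comparison of 2 groups thus also carries the spread of the other groups.

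mTORC1 is the kinase complex that drives protein synthesis and growth on the lysosome when amino acids and growth factors are plentiful. The sestrins, encoded by Sesn1, Sesn2 and Sesn3, bind GATOR2 and thereby free GATOR1 to switch off the Rag GTPases that hold mTORC1 at the lysosome, and SESN1 and SESN2 also bind leucine. Ddit4 encodes REDD1, which restrains mTORC1 through the TSC complex and Rheb, and Foxo3 encodes a forkhead transcription factor that Akt keeps out of the nucleus. Sesn1 and Sesn2 are textbook targets of p53, whereas Sesn2 and Ddit4 also answer to ATF4, the factor of the integrated stress response. TFEB and TFE3, the factors whose genes were targeted in DKO cells, are themselves held in the cytoplasm by active mTORC1.

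Libraries held between 29837255 and 61809316 counts. Tfeb stood at 16.6 to 17.2 CPM (counts scaled to the size of the library) in Null control and 3.14 to 5.25 CPM in DKO control libraries, and Tfe3 at 89.4 to 119.0 against 31.5 to 42.5 CPM, so both transcripts were lower but still present in DKO cells; RNA of an edited gene can persist, and these counts do not measure the protein. After etoposide, Tfeb stood at 7.10 to 7.95 CPM in Null and 4.27 to 4.44 CPM in DKO libraries, and Tfe3 at 99.1 to 103.1 against 34.2 to 40.4 CPM. The titles of the 3 DKO etoposide libraries carry the word MEFs, for embryonic fibroblasts, although their other labels say RAW264.7. In those 3 libraries the 8 macrophage markers summed to 4585 to 4775 CPM with none at 0, against 4193 to 5132 CPM in the other groups. The 8 fibroblast markers summed to 1.01 to 1.20 CPM there, with 1 of 8 at 0, and reached 2.04 CPM at most in any library.

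The 5 genes are protein coding, and in the GENCODE M21 annotation of GRCm38 no exon of theirs overlaps another gene. Sesn1 lies on chromosome 10 (41809935 to 41908424, plus strand), Foxo3 (42181841 to 42276755) and Ddit4 (59949669 to 59951834) lie on the minus strand of the same chromosome, Sesn2 on chromosome 4 (132492032 to 132510501, minus strand) and Sesn3 on chromosome 9 (14275067 to 14333101, plus strand). All 5 matched RefSeq promoter windows on GRCm38.p6, which run from 250 bases before to 50 bases after the start of transcription, with 6 windows in all since Sesn1 has 2. The windows of Sesn1, Sesn2 and Ddit4 are given up to the annotated starts, because Sesn2 and Ddit4 rose in both lines whereas Sesn1 moved the other way or did not pass the test. Capitals mark matches, on either strand, to the CCAAT box, to the hypoxia response core ACGTG and to the p53 half-site.
Sesn1 (chr10:41887189-41887438, plus strand): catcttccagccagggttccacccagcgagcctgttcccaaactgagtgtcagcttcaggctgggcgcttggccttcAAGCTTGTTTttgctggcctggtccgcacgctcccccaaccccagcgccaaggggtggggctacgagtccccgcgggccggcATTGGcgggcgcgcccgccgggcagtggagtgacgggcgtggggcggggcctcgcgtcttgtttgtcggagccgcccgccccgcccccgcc
Sesn2 (chr4:132510502-132510706, minus strand): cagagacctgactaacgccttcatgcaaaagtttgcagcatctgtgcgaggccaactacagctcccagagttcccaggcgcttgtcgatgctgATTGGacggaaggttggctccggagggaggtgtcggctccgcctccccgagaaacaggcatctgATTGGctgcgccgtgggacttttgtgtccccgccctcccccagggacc
Ddit4 (chr10:59951835-59952020, minus strand): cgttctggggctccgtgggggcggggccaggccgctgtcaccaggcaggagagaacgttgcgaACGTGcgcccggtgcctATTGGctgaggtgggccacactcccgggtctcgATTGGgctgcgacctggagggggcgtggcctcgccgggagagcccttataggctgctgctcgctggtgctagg

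The Sesn1 stretch, which belongs to the downstream of its 2 starts, held 1 p53 half-site and 1 CCAAT box. The Sesn2 stretch held 2 CCAAT boxes and the Ddit4 stretch 2 CCAAT boxes and 1 hypoxia response core. Across all 32851 windows, 37.4% held a CCAAT box, 19.6% the hypoxia response core and 8.36% a p53 half-site. The C/EBP-ATF element TGATGNAA (3.97% of windows) and the E-box CACGTG (7.15%), which contains ACGTG and is the core of the sites TFEB and TFE3 are known for, were in none of the 6 windows. The FoxO element TGTTTAC (3.65%) lay in the upstream Sesn1 window, 22 to 28 bases after the start. A missing match speaks only of these letters in these windows.

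In Null cells Sesn2, Ddit4 and Foxo3 rose after etoposide and Sesn1 fell. Sesn2 rose 3.40-fold, Ddit4 10.9-fold and Foxo3 1.43-fold, Sesn3 rose from the edge of detection, and Sesn1 fell 1.54-fold. Apart from Sesn3, which entered the test only through its etoposide libraries, all 4 genes were called in Null cells, where 39.6% of all genes tested were (20.9% higher and 18.7% lower). In DKO cells Sesn2, Ddit4 and Foxo3 rose as well and Sesn1 did not pass the test, so 3 of these 4 were called where 39.3% of all genes were (20.2% higher and 19.1% lower). Sesn3 was called there too, but not with a smaller prior count. Calls are adjusted p-values under 0.05 from limma, with Benjamini-Hochberg adjustment over all 18066 genes. In bulk RNA, fewer cells that carry a transcript and less of it per cell cannot be told apart.

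Sesn2 stood at 49.7, 39.3 and 35.2 CPM in the Null control libraries and at 135, 144 and 139.5 CPM after etoposide. The DKO control libraries held 42.6, 58.7 and 61.9 CPM and the DKO etoposide libraries 101.6, 88.3 and 108 CPM. Every etoposide library was above every control library in both lines. Among treated cells every Null library was above every DKO library, whereas the 2 control groups overlapped. The log2 change was 1.77 ± 0.149 (SE, adjusted p = 1.64e-06, limma) in Null and 0.88 ± 0.149 (adjusted p = 4.87e-04) in DKO cells.

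Ddit4, the REDD1 gene, was low in control cells, at 1.30, 2.46 and 3.67 CPM in Null and 2.95, 2.10 and 1.07 CPM in DKO libraries. After etoposide it reached 24.6, 26.0 and 25.7 CPM in Null and 11.2, 11.1 and 6.95 CPM in DKO libraries. The control groups overlapped, all treated libraries lay above them, and the 3 Null etoposide libraries lay above the 3 DKO ones. The log2 change was 3.45 ± 0.377 (SE, adjusted p = 1.50e-05, limma) in Null cells, as large as or larger than that of all but 0.559% of genes tested. In DKO cells it was 2.30 ± 0.377 (adjusted p = 3.82e-04). Its lowest control libraries, Null control replicate 1 and DKO control replicate 3, are also the shallowest of their groups, at 29837255 and 34918422 counts; the part of depth in this was not tested.

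Foxo3, the forkhead factor gene, changed by less than 1 on the log2 scale in both lines. It stood at 52.0, 53.5 and 55.7 CPM in Null control and 75.5, 78.4 and 76.8 CPM in Null etoposide libraries. DKO control libraries held 52.8, 47.9 and 46.5 CPM and DKO etoposide libraries 64.1, 66.3 and 56.9 CPM. The treated groups did not overlap with the control groups or with each other. The log2 change was 0.52 ± 0.0758 (SE, adjusted p = 1.65e-04, limma) in Null and 0.35 ± 0.0758 (adjusted p = 0.00300) in DKO cells, and 35.4% and 50.6% of all genes tested changed at least as much.

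Sesn3, the sestrin best known as a FoxO target, was close to absent. Its counts were 0, 7 and 0 in Null control, 6, 7 and 1 in DKO control, 38, 32 and 28 in Null etoposide and 16, 24 and 31 in DKO etoposide libraries. In the libraries at 0, a count of 0 allows up to 3 counts, or 0.0973 and 0.0618 CPM. Since only its etoposide libraries brought Sesn3 into the test, it had to differ from control. The summed counts were 98 against 7 in Null cells, a ratio of 10.998 after scaling for depth (95% exact interval 5.14 to 28.1), and 71 against 14 in DKO cells, a ratio of 4.15 (2.32 to 7.98); the intervals cover counting error only. The fitted log2 changes, 2.88 ± 0.460 (SE, adjusted p = 3.20e-04, limma) and 1.69 ± 0.460 (adjusted p = 0.0113), depend on the prior count, and with a prior of 0.5 in place of 3 the adjusted p in DKO cells was 0.0718.

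Sesn1 behaved unlike the others. The Null control libraries held 36.0, 45.0 and 49.1 CPM and the Null etoposide libraries 27.1, 28.8 and 27.8 CPM, so that all 3 treated libraries were below all 3 controls. In DKO cells it was 19.2, 15.9 and 14.3 CPM in control and 18.05, 18.09 and 16.87 CPM in etoposide libraries, which overlap. The log2 change was -0.62 ± 0.123 (SE, adjusted p = 0.00147, limma) in Null and 0.11 ± 0.123 (adjusted p = 0.521) in DKO cells, with a 95% interval of -0.16 to 0.38 in the latter.

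**Figure D1:**
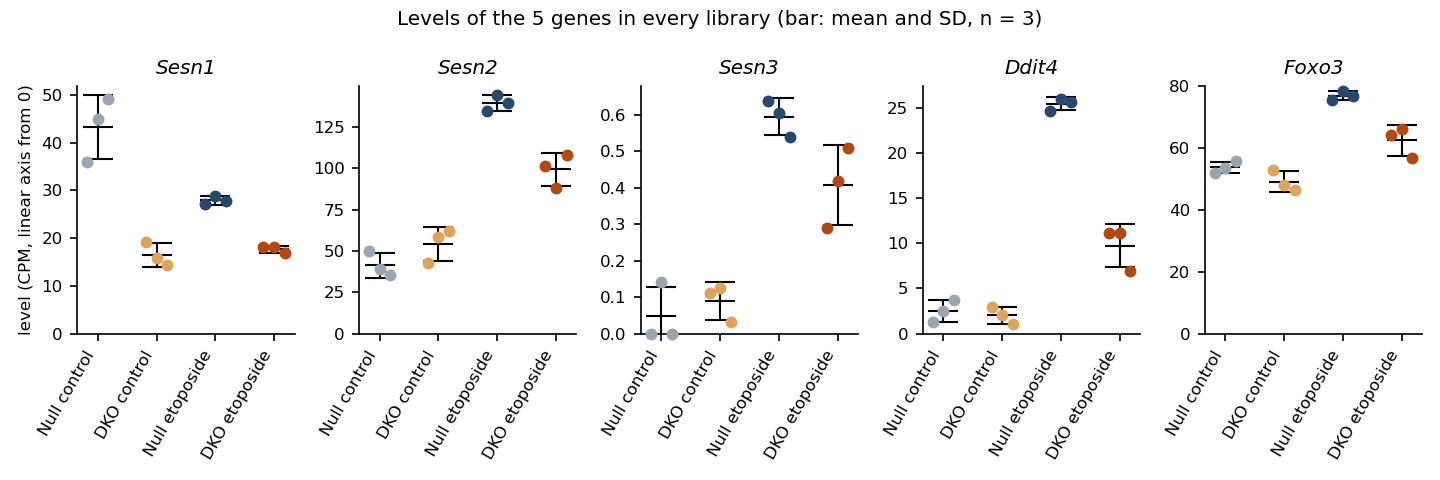
CPM of each gene (linear axes from 0) in the 3 libraries of each group as points in replicate order, with the group mean and SD as bars (n = 3; the lower SD bar of Sesn3 in Null control runs below the axis). Sesn2, Sesn3, Ddit4 and Foxo3 are highest in Null etoposide and next highest in DKO etoposide libraries, whereas Sesn1 is highest in Null control libraries. For Sesn3 the rise above control follows from its entry to the test through etoposide libraries.

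Ordered by group mean, Sesn2, Ddit4 and Foxo3 share a ladder. Both control groups lie at the bottom and overlap, DKO etoposide is in the middle and Null etoposide at the top. Sesn3 had the same order, but its place above control was fixed by its entry to the test through etoposide libraries. The means were 41.4 ± 7.50, 54.4 ± 10.4, 99.3 ± 10.1 and 139.6 ± 4.67 CPM for Sesn2 (SD, n = 3 each, from Null control through DKO control and DKO etoposide to Null etoposide). Ddit4 ran from 2.04 ± 0.942 CPM in DKO control and 2.48 ± 1.19 CPM in Null control through 9.73 ± 2.41 CPM in DKO etoposide to 25.4 ± 0.721 CPM in Null etoposide. Foxo3 ran from 49.1 ± 3.34 and 53.7 ± 1.83 CPM in the same 2 control groups through 62.4 ± 4.89 to 76.9 ± 1.42 CPM. For Sesn1 the order was DKO control (16.5 ± 2.47 CPM) and DKO etoposide (17.7 ± 0.692 CPM), which overlap, then Null etoposide (27.9 ± 0.848 CPM) and Null control (43.4 ± 6.71 CPM).

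Levels can be set beside each other between genes only per length, and here the unit is CPM per kilobase of merged exons (RPKM). In Null control cells Sesn2 (11.9 ± 2.16 RPKM) and Sesn1 (10.9 ± 1.69 RPKM) overlapped, followed by Foxo3 at 7.09 ± 0.242, Ddit4 at 1.41 ± 0.676 and Sesn3 at 0.00309 ± 0.00534 RPKM. After etoposide the Null order was Sesn2 (40.2 ± 1.34 RPKM), Ddit4 (14.5 ± 0.411), Foxo3 (10.2 ± 0.188), Sesn1 (7.004 ± 0.213) and Sesn3 (0.0390 ± 0.00329). Ddit4 thus moved from below Sesn1 and Foxo3 to above both. In DKO etoposide cells Sesn2 led again at 28.6 ± 2.91 RPKM, with Foxo3 at 8.24 ± 0.646, Ddit4 at 5.55 ± 1.37 and Sesn1 at 4.44 ± 0.174 RPKM, where Ddit4 and Sesn1 overlapped.

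**Figure D2:**
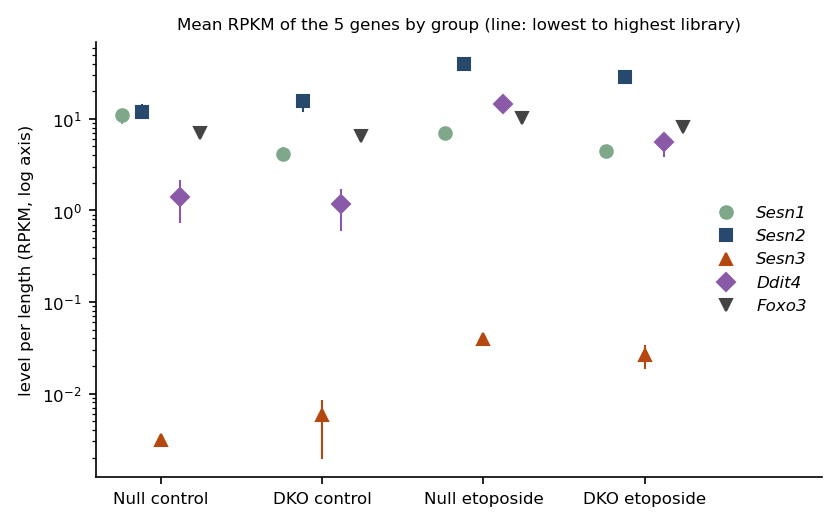
Mean RPKM of the 5 genes (log axis) in the 4 groups, with lines from the lowest to the highest library; no line is drawn for Sesn3 in Null control, where 2 libraries are at 0. Ddit4 rises from 1.41 to 14.5 RPKM in Null cells and passes Foxo3 and Sesn1, while Sesn3 stays below 0.1 RPKM everywhere.

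The mix of sestrin transcripts shifted towards Sesn2. Sesn1 made up 38.7%, 49.97% and 54.9% of the summed sestrin RPKM in the Null control libraries, and 14.9%, 14.8% and 14.8% after etoposide. In DKO control libraries it made up 28.2%, 19.1% and 16.8%, and in DKO etoposide libraries 13.4%, 15.2% and 11.97%. The Sesn1 share was therefore highest in Null control cells and, after etoposide, overlapped between the lines, at 14.8 ± 0.0397% in Null and 13.5 ± 1.59% in DKO cells (SD, n = 3). Sesn3 never exceeded 0.0944%, or 0.157% with the longest transcript as length. The summed level went from 22.8 ± 0.474 to 47.2 ± 1.56 RPKM in Null and from 19.8 ± 2.38 to 33.1 ± 2.78 RPKM in DKO cells, and in Null control cells it varied less between libraries than either sestrin did. Shares and sums are descriptions with no test.

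**Figure D3:**
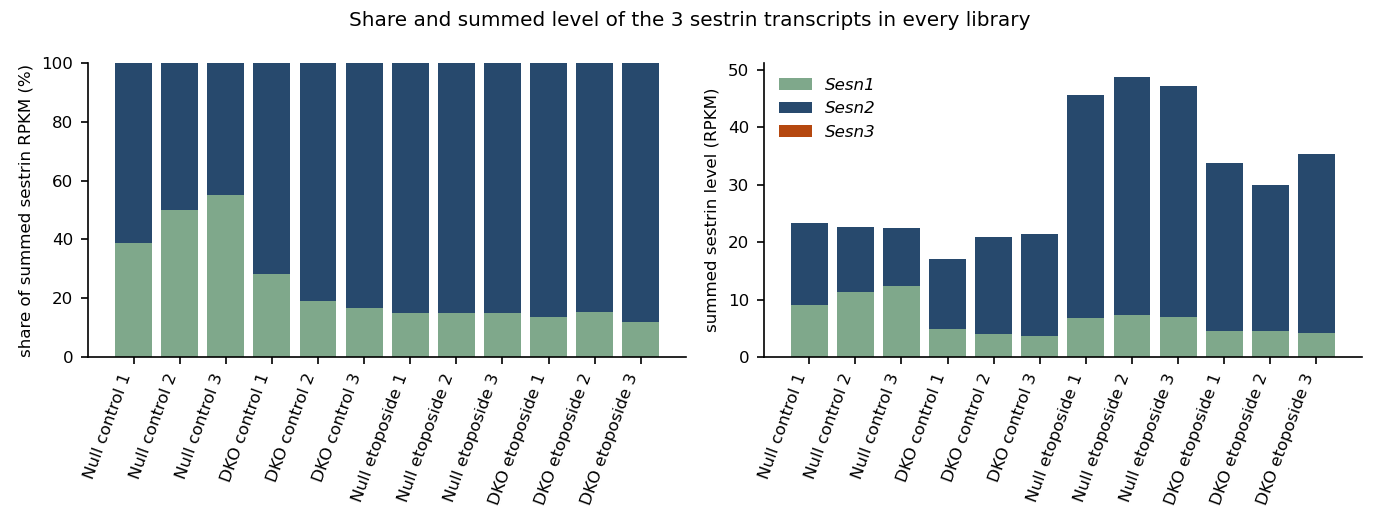
Left, share of each sestrin in the summed sestrin RPKM (percent) of each of the 12 libraries; right, the summed level in RPKM, both as stacked bars. The Sesn1 share is 38.7 to 54.9% in Null control and 11.97 to 15.2% in the 6 etoposide libraries, and Sesn3 is too low to be seen.

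Before etoposide Sesn1 was the 1 gene of the 5 called between the lines. It was 2.63-fold lower in DKO control cells (log2 difference -1.39 ± 0.123 SE, adjusted p = 3.95e-06, limma), a difference as large as or larger than that of all but 5.01% of genes tested. Of all genes tested, 19.3% were called in this comparison (10.9% higher). On library sizes without TMM scaling, 43.4% in place of 56.6% of the genes called in this comparison were higher in DKO cells. The other 4 gave log2 differences of 0.39 for Sesn2 (adjusted p = 0.0947), 0.67 for Sesn3 (0.382), -0.27 for Ddit4 (0.710) and -0.13 for Foxo3 (0.282). Their 95% intervals were 0.06 to 0.72, -0.33 to 1.68, -1.09 to 0.55 and -0.30 to 0.03. On leaving out replicate 1 of the Null or of the DKO control group the Sesn2 difference was 0.53 or 0.54 and passed the test (adjusted p = 0.0230 and 0.00739, limma). Without Null control replicate 2 the Sesn3 difference was 1.26 (adjusted p = 0.0389, limma), but both Null control libraries left hold 0 counts, so this value is set by the prior count. Over all alternatives the Sesn3 difference ran from 0.38 to 1.84. The Ddit4 difference turned positive on leaving out replicate 3 of either control group (0.07 for Null, 0.13 for DKO).

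After etoposide all 5 genes were lower in DKO cells, and 4 of them passed the test. Ddit4 was 2.66-fold lower (log2 -1.41 ± 0.377 SE, adjusted p = 0.0119, limma), Sesn1 1.58-fold, Sesn2 1.41-fold and Foxo3 1.23-fold. The pooled SE of Ddit4 also carries the wider spread of its control libraries. Its log2 CPM ran from 0.44 to 1.90 in Null control and from 0.17 to 1.59 in DKO control libraries. After etoposide it ran from 4.63 to 4.71 in Null and from 2.81 to 3.49 in DKO libraries. For Sesn3 the log2 difference was -0.52 ± 0.460 (adjusted p = 0.432), with a 95% interval of -1.52 to 0.49. Of all genes tested, 33.6% were called here and 17.8% were called lower. The Ddit4 call was lost without DKO etoposide replicate 3, the library lowest in Ddit4 (-1.18, adjusted p = 0.0542). The Sesn2 call was lost on leaving out any 1 of the 3 Null etoposide libraries or DKO etoposide replicate 1 or 2, with adjusted p-values of 0.0543 to 0.0923. Sesn1 and Foxo3 kept their calls in each of these fits.

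Whether the response itself differed between the lines was asked with the interaction of genotype and etoposide, which called 2 of the 5 genes, where 9.45% of all genes were called (6.39% lower). For Sesn1 the DKO response exceeded the Null response by 0.74 ± 0.174 on the log2 scale (SE, adjusted p = 0.0181, limma), and for Sesn2 it was smaller, at -0.89 ± 0.211 (adjusted p = 0.0187). For Ddit4 the interaction was -1.15 ± 0.533 (adjusted p = 0.250) with a 95% interval of -2.31 to 0.02. For Sesn3 it was -1.19 ± 0.651 (0.346) and for Foxo3 -0.17 ± 0.107 (0.428), with intervals of -2.61 to 0.23 and -0.41 to 0.06. The Sesn3 value depends on the prior count and on few reads: it was -2.41 with a prior of 0.5 and -1.78 without Null control replicate 2 (adjusted p = 0.330 and 0.0538). Both calls sat close to the threshold: the Sesn1 call was lost without Null control replicate 2 or Null etoposide replicate 3, and the Sesn2 call without any 1 of 6 libraries (replicate 2 of each group and replicate 1 of both etoposide groups), at adjusted p-values of 0.0505 to 0.0625 over both genes.

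**Figure D4:**
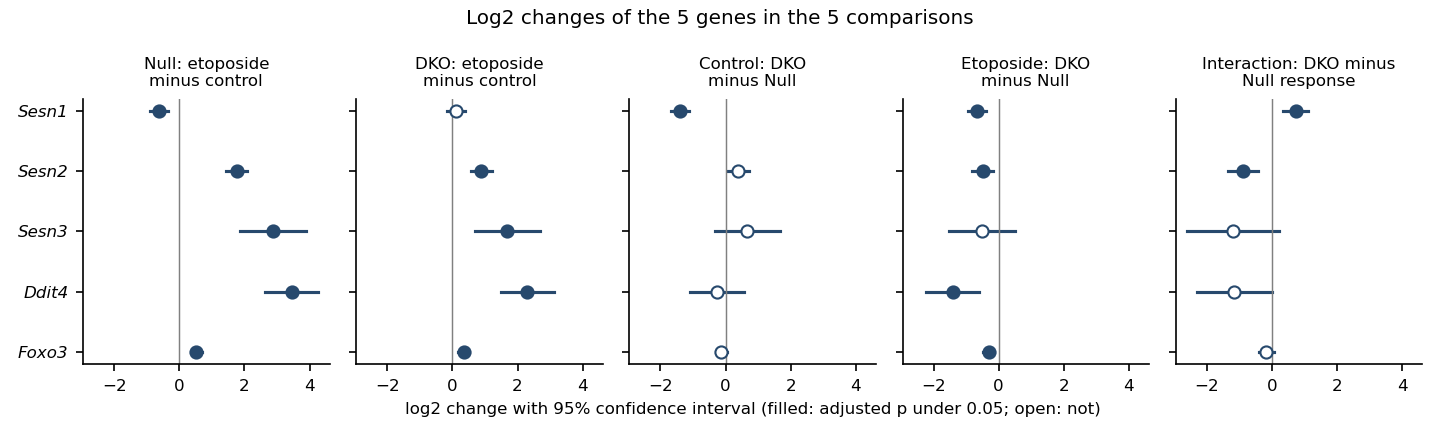
Log2 changes of the 5 genes with 95% confidence intervals in the 5 comparisons (x axis, log2; filled points passed the adjusted p threshold of 0.05, open points did not). All 5 points are filled for Null cells after etoposide, although Sesn3 entered the test only through its etoposide libraries. Sesn1 alone is filled in control cells, and Sesn1 (0.74) and Sesn2 (-0.89) are filled in the interaction.

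The machinery that the sestrins act on changed by less than 1 on the log2 scale in each gene tested. Among 10 tested genes of GATOR1, KICSTOR and the amino acid sensors, 4 rose and 1 fell in Null cells (median log2 change 0.31, against 0.03 over all genes tested), and 5 rose and 2 fell in DKO cells (0.44 against 0.03). Beside these and the following counts of list members stand the shares of all genes given above: 20.9% higher and 18.7% lower in Null, and 20.2% higher and 19.1% lower in DKO cells. The largest rise was that of Castor1, the arginine sensor, at 0.95 and 0.97 on the log2 scale (adjusted p = 0.00181 and 0.00156, limma). Depdc5, a GATOR1 subunit, fell by 0.24 and 0.47 (adjusted p = 0.0257 and 3.43e-04). In GATOR2, the direct partner of the sestrins, 1 of 5 genes rose in Null and 2 of 5 in DKO cells with none lower, led in both by Wdr24 (0.84 and 0.77, adjusted p = 4.48e-04 and 8.80e-04). After etoposide 2 of the 10 genes of the first list were lower in DKO cells and none higher. Of all genes, 17.8% were lower and 15.9% higher. The larger difference was that of Depdc5 (-0.44, adjusted p = 6.73e-04, limma), which gave -0.21 in control cells (adjusted p = 0.0815). In GATOR2 Mios was lower (-0.38) and Wdr59 higher (0.35). Mios was already lower in DKO control cells (-0.48, adjusted p = 3.89e-04, limma), where Wdr59 gave 0.27 (adjusted p = 0.0775). None of these 15 genes passed the interaction test (limma), where 9.45% of all genes did, and none had an unadjusted p under 0.05 (lowest 0.0510, for Depdc5).

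Of the TSC complex, through which REDD1 acts, and of AMPK, 9 genes were tested, of which 3 rose and 1 fell in Null cells and 2 rose and 2 fell in DKO cells (medians 0.19 and 0.21, against 0.03 and 0.03 over all genes). The 4 of 9 called in each line are near the 39.6% and 39.3% of all genes. Tsc2, the GTPase-activating subunit, rose by 0.30 in both (adjusted p = 0.00893 and 0.00868, limma), whereas its scaffold Tsc1 gave 0.22 and 0.21 (adjusted p = 0.133 and 0.149). Prkag2, an AMPK subunit, fell by 0.61 and 0.62, although up to 7.26% of its counts could come from overlapping genes. Among the 6 genes of mTORC1, its bound inhibitors and Rheb, 2 fell in Null cells and 1 rose and 1 fell in DKO cells (medians -0.28 and -0.16, against 0.03 over all genes in each line). Rheb, the GTPase that activates mTORC1, fell by 0.58 and 0.88 (adjusted p = 3.43e-04 and 1.14e-05). Rptor, which encodes Raptor, fell by 0.69 in Null cells (adjusted p = 2.77e-04) and gave -0.27 in DKO cells (adjusted p = 0.0655), and Akt1s1, which encodes the inhibitor PRAS40, rose by 0.68 in DKO cells (adjusted p = 4.54e-04). Deptor, another bound inhibitor, gave -0.44 and -0.42 (adjusted p = 0.0681 and 0.0791). After etoposide Rptor (0.75) and Akt1s1 (0.63) were higher in DKO than in Null cells, where 15.9% of all genes were. In control cells they gave 0.33 and 0.04 (adjusted p = 0.0510 and 0.712, limma). Akt1s1 was the 1 gene of the 6 that passed the interaction test (0.59, adjusted p = 0.0372), where 9.45% of all genes did.

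Of 6 other brakes on growth signalling, 2 rose and 3 fell in Null cells and 1 rose and 3 fell in DKO cells (medians -0.24 and -0.47, against 0.03 over all genes in each line), where 39.6% and 39.3% of all genes were called. The gene that rose in both lines was Grb10, an adaptor that dampens insulin signalling, which held 38 counts in Null and 63 counts in DKO etoposide libraries against 1 count in each control group. It entered the test only through its etoposide libraries, so that it had to differ from control. The depth-scaled ratio was 29.9 in Null and 51.6 in DKO cells, with 95% exact intervals for counting error that start at 5.04 and 8.93 and run past 1000. Trib3, a pseudokinase that restrains Akt and a target of ATF4, fell by 3.73 in Null cells (adjusted p = 4.04e-08) and fell by 6.35 in DKO cells (adjusted p = 1.40e-10), from 19.7 to 23.6 CPM in Null control to 1.21 to 1.82 CPM in Null etoposide libraries and from 26.8 to 30.2 to 0.192 to 0.363 CPM in DKO libraries. Ddit4l, the paralog of Ddit4, was not tested: it was at 0 in all 6 control libraries and held 10, 4 and 1 counts in Null and 4, 8 and 0 counts in DKO libraries after etoposide. Prkaa2, Foxo6, Perp, Vldlr and Egln3 were also too low to be tested.

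Foxo1, the best-studied of the other FoxO factors, gave -0.25 in Null (adjusted p = 0.0710, limma) and -0.19 in DKO cells (adjusted p = 0.169). Foxo4, named here after its values were seen, gave 0.17 in Null cells (adjusted p = 0.364) and rose by 0.51 in DKO cells (adjusted p = 0.00989). Among 8 tested FoxO factors and textbook FoxO targets, 3 rose and 3 fell in each line (medians -0.04 and -0.25, against 0.03 over all genes in each), where about as many of all genes rose (20.9% and 20.2%) as fell (18.7% and 19.1%). Bcl2l11, which encodes the death protein BIM, rose by 1.28 and 0.68 (adjusted p = 1.95e-07 and 4.10e-05). Ccng2, an atypical cyclin, rose by 0.38 in Null cells (adjusted p = 0.00467) and fell by 0.68 in DKO cells (adjusted p = 7.33e-05), and Bcl6, a transcriptional repressor, fell by 0.53 and 0.34 (adjusted p = 3.98e-04 and 0.00734). Ccng2 and Bcl2l11 were the 2 of these 8 that passed the interaction test, where 9.45% of all genes did. They gave -1.06 and -0.61 (adjusted p = 1.53e-04 and 0.00618, limma). Bcl2l11 was already higher in DKO control cells (0.73, adjusted p = 4.25e-05, limma), and after etoposide it gave 0.12 (adjusted p = 0.298). Ccng2 gave -0.27 in control cells (adjusted p = 0.0574) and was lower in DKO cells after etoposide (-1.33, adjusted p = 2.14e-07).

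The p53 and ATF4 lists went opposite ways. All 15 tested p53 targets rose in Null cells (median 3.03, where 20.9% of all genes rose) and 12 of 15 in DKO cells with none lower (median 1.83, where 20.2% of all genes rose). Trp53inp1 rose by 4.98 in DKO cells, the largest rise of the list there. In Null cells that was Plk2, a stress-responsive kinase gene, with 1764 counts after etoposide against 2 in control, a depth-scaled ratio of 693 (95% exact interval for counting error 192 to 5726); its fitted 7.15 depends on the prior count. Cdkn1a, the p21 gene, rose by 3.03 and 1.59 (adjusted p = 2.59e-09 and 4.23e-07, limma) and Mdm2 by 3.23 and 2.44. In control cells 11 of the 15 were higher in DKO cells, where 10.9% of all genes were, and 1 was lower, Btg2, an antiproliferative gene (-0.86, adjusted p = 7.58e-06, limma). The highest against Null was Plk2, with 226 counts in DKO control against the 2 in Null control (ratio 103, 95% exact interval for counting error 28.1 to 854). After etoposide 2 were higher, led by the death receptor gene Tnfrsf10b (2.34), and 9 lower, led by Pmaip1, which encodes NOXA (-1.70), where 17.8% of all genes were lower, and 11 of 15 passed the interaction test, all with the smaller response in DKO cells, where 9.45% of all genes passed. In the interaction Sesn2 had the same sign as these 11 genes and Sesn1 the opposite one.

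All 13 tested genes of the ATF4 list, among them targets that respond together with Sesn2 and Ddit4 in the integrated stress response, fell in both lines (medians -1.59 and -1.93), where 18.7% and 19.1% of all genes fell. Atf4 itself fell by 1.59 and 1.93 (adjusted p = 1.32e-06 and 1.80e-07, limma), from 531 to 705 CPM in Null control to 199.0 to 213 CPM in Null etoposide libraries, and from 541 to 744 to 162 to 191 CPM in DKO libraries. Asns, the asparagine synthetase gene, fell by 2.26 and 2.04. After etoposide 6 of the 13 had the lower level in DKO cells, where 17.8% of all genes did, led by Trib3 (-2.20). Only 1 was higher, the cystine transporter gene Slc7a11 (1.90), which was already higher in control cells (0.53, adjusted p = 5.32e-04, limma). Sesn2 and Ddit4 rose in the same libraries. Hypoxia and glucocorticoids are some of the other known inducers of Ddit4. Of 10 tested genes that respond to them, 1 rose and 5 fell in each line (medians -0.50 and -0.32, against 0.03 over all genes in each). Of all genes, 20.9% and 20.2% rose and 18.7% and 19.1% fell. The gene that rose was Adm, which encodes adrenomedullin, with 140 counts in Null and 51 in DKO etoposide libraries against 7 in each control group. It too entered the test only through etoposide libraries; the depth-scaled ratios were 15.7 (95% exact interval for counting error 7.43 to 39.8) and 5.97 (2.70 to 15.6). Tsc22d3, the glucocorticoid-induced GILZ gene, fell by 2.14 and 2.19. The largest fall in DKO cells was that of Ndrg1 (2.51 against 1.10 in Null cells), of whose counts up to 25.8% could come from overlapping genes.

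**Figure D5:**
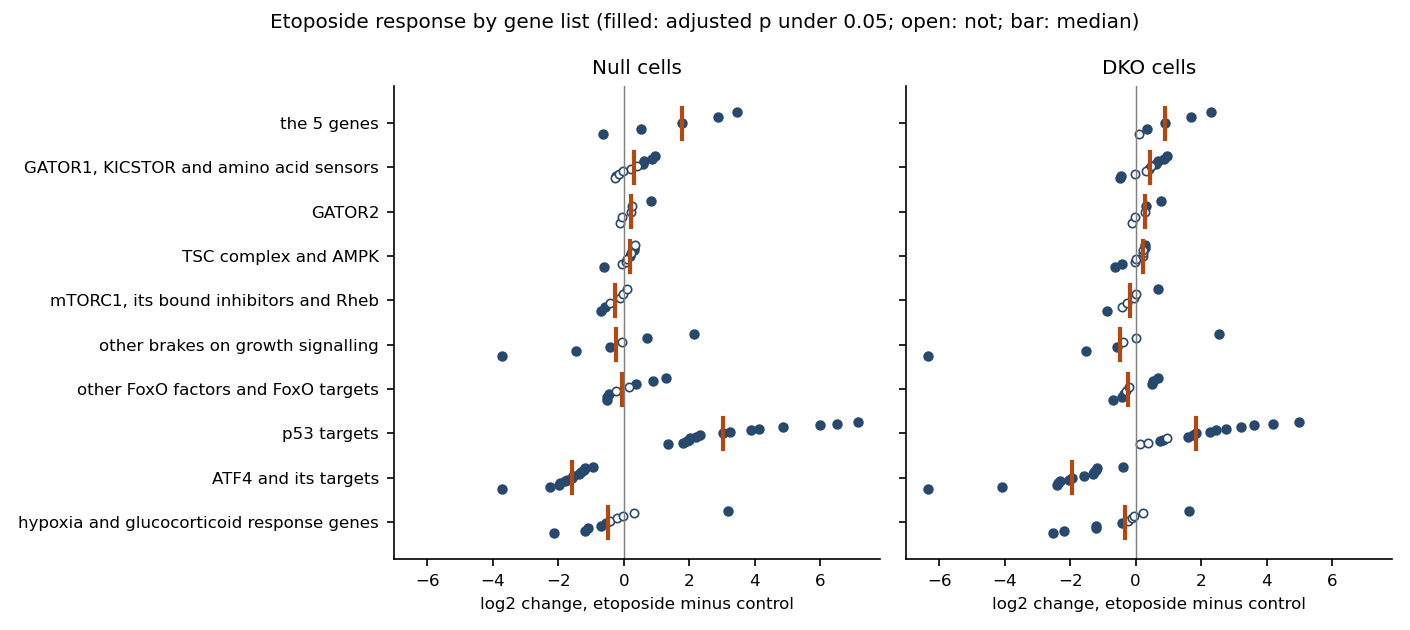
Log2 change on etoposide (x axis) of each tested gene in Null and DKO cells by list, filled where adjusted p was under 0.05, with the list median as a bar. The p53 list lies to the right (medians 3.03 and 1.83) and the ATF4 list to the left (-1.59 and -1.93), while every gene of the GATOR, TSC and mTORC1 lists stays within 1 of 0.

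Across the 12 libraries the log2 levels of Ddit4 and Foxo3 ran closely together (Pearson r = 0.97). Sesn2 gave r = 0.87 with Sesn3 and 0.84 with Ddit4, whereas Sesn1 gave -0.32 to 0.18 with the other 4. Among the genes with a mean of at least 10 CPM, those most like Sesn1 were Atrn (r = 0.989), Tmem38b (0.984) and Ggta1 (0.982). Those most like Sesn2 were Ppp1r13l (0.992), Traf4 (0.991) and Plxna1 (0.990), and those most like Ddit4 were Ccnl2 (0.989), Degs1 (0.989) and Pigf (0.988). For Foxo3 they were Pitpnm1 (0.996), Cad (0.993) and Mpg (0.989), and for Sesn3, at its few counts, Stn1 (0.945), Eef1akmt1 (0.940) and Dpep2 (0.939). These correlations are descriptions over 12 libraries that share groups and preparation, searched among 9140 or 9141 genes.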

How the data were processed

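RNA was measured by stranded, ribosomal RNA-depleted total RNA-seq. Per the labels and the study's methods, the authors aligned read pairs with HISAT2 and kept unique pairs. The labels' processing notes name mm10 and featureCounts, whereas the methods name HTSeq on GENCODE, and this could not be settled. The authors deposited whole-number counts for each gene in each library, neither normalized nor pooled.

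Identifiers were matched to GENCODE M21 without version (99.4% found). Genes were filtered with edgeR 4.0.16 filterByExpr (18066 kept, holding 99.96% of counts), scaled by TMM and tested with limma 3.58.1 on log2 CPM (prior count 3, robust trend) over all 12 libraries, in R 4.3.3, two-sided, in 5 contrasts with Benjamini-Hochberg adjustment. Log2 changes carry that prior count. In a simulation of 17567 genes, 200 well-counted genes were changed and every gene had the same set spread between libraries. The test recovered 98% of 2-fold and 100% of 4-fold changes in the simulated contrast of Null etoposide with Null control, with 16 false calls. The simulation covers no low gene such as Sesn3, no wider spread such as that of Ddit4 in control cells, and not the interaction. RPKM is CPM per 1000 bases of merged exons. Depth of 29837255 to 61809316 counts sets the precision of low genes such as Sesn3.

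Alternatives were edgeR's quasi-likelihood test, DESeq2 1.42.0, voom, other scalings, filters and priors, and leaving out each library. Every member was named, and from each list the largest called rise and fall plus fixed genes; not every gene this allows is given. The members and lists were chosen with earlier results of these data known. Promoters were read from RefSeq (GRCm38.p6).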

Additional observations from a re-analysis of the deposited data

Results flagged for a closer look

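The etoposide response differed between the lines for Sesn1 and Sesn2 by the test of the interaction. For Sesn1 the DKO response minus the Null response was 0.74 on the log2 scale (limma, adjusted p = 0.0181), with all 3 Null etoposide libraries below all 3 Null controls and overlapping groups in DKO cells. For Sesn2 it was -0.89 (limma, adjusted p = 0.0187), with all 3 etoposide libraries above all 3 controls in each line. Over the alternatives the adjusted p ranged from 5.84e-04 to 0.0560 for Sesn1 and from 0.00147 to 0.0625 for Sesn2.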

How the results depend on the processing

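Of 564 member changes recomputed under the alternatives, 541 kept their direction and their side of the threshold, 18 lost the call, 3 gained it and 2 changed sign without passing the test. The replicate numbers did not pair the libraries: same-numbered libraries of different groups gave r of -0.54 to 0.39 between their deviations over 18 pairs, and others -0.49 to 0.58 over 36. With the replicate block the interaction called 0 in place of 2 members, at 0.74 for Sesn1 (adjusted p = 0.0531, limma) and -0.89 for Sesn2 (0.0554), and after etoposide the Sesn2 difference of -0.49 was not called (0.0506); these 2 genes held every call the block changed. With a prior count of 0.5 the Sesn3 change in DKO cells was 2.21, not called. Leaving out 1 library gave 1 to 2 members called in control cells and 0 to 2 in the interaction. Over those fits the control difference was 0.28 to 0.54 for Sesn2, 0.38 to 1.26 for Sesn3 and -0.20 to -0.093 for Foxo3. For Ddit4 it was -0.66 to 0.13, and it turned positive at 0.07 and 0.13. After etoposide the difference was -0.55 to -0.41 for Sesn2, -1.52 to -1.18 for Ddit4 and -0.67 to -0.32 for Sesn3. The interaction was 0.64 to 0.87 for Sesn1, -1.03 to -0.78 for Sesn2, -1.78 to -0.90 for Sesn3, -1.54 to -0.75 for Ddit4 and -0.21 to -0.086 for Foxo3. The Sesn1 response in DKO cells was 0.015 to 0.23, not called in any of these fits. The 1.26 and -1.78 of Sesn3 compare with Null control libraries at 0 counts and are set by the prior count. With only the control libraries fitted, 2031 in place of 3490 genes were called between the lines. With only the etoposide libraries fitted, 8223 in place of 6079 genes were called between the lines, or 47.1% in place of 33.6% of those tested. The cause of these shifts was not tested. Sesn3 could not be fitted with at least 1 CPM required. With the longest transcript as length, 9 mean RPKM values moved by more than 1 SD. Sesn3, at 0 to 38 counts a library, is limited by its depth.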

Other observations

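In Null control, DKO control and DKO etoposide cells the library highest in Sesn2 was also the lowest of its group in Sesn1, Ddit4 and Foxo3. In Null etoposide cells it ran the other way: replicate 2 was the highest of its group in Sesn2, Sesn1, Ddit4 and Foxo3. In DKO etoposide cells Sesn3, at its few counts, was highest in replicate 3 together with Sesn2. The first 3 libraries were Null control replicate 1 (Sesn2 49.7 CPM, Sesn1 36.0 CPM, Ddit4 1.30 CPM), DKO control replicate 3 (61.9, 14.3 and 1.07 CPM) and DKO etoposide replicate 3 (108, 16.9 and 6.95 CPM). Those of the control groups were the shallowest of their groups and that of DKO etoposide was the deepest, at 61809316 counts.

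In the same 3 groups Sesn2 and Atf4 ranked the libraries alike. Atf4 stood at 705, 637 and 531 CPM in Null control and 541, 733 and 744 CPM in DKO control replicates 1 to 3, beside 49.7, 39.3 and 35.2 CPM and 42.6, 58.7 and 61.9 CPM of Sesn2. In DKO etoposide cells Atf4 stood at 173, 162 and 191 CPM beside 101.6, 88.3 and 108 CPM of Sesn2. Between control and etoposide cells Atf4 fell while Sesn2 rose. This pattern was noticed after the values were seen, rests on 3 libraries a group and has no test.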
